A study of Mus musculus with 12 samples.

Results

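The comparison was of MIN6 cells carrying siRNA against Hes3 with MIN6 cells carrying a scrambled control siRNA, both kept in Defined Conditions (DC), which the labels describe as serum-free medium at 5% oxygen. It used 8 of the 12 Affymetrix arrays of the series: those labelled Hes3 siRNA with the numbers 1, 2, 5 and 7, and the scrambled arrays 1 to 4. Its genes were all those with a probe set that the platform annotation gives exactly 1 symbol, each represented by its brightest such probe set, which gave 19938 genes of the 19938 measured in the series. The other 4 arrays, 2 for each siRNA, came from Classic Conditions (CC), serum-containing medium at 20% oxygen, and are used for one comparison near the end. MIN6 is a mouse insulinoma line that makes insulin. Every group was transfected, with siRNA at 2 µM, and harvested 12 to 24 hours later. The samples of a group came from a single experiment, so the p-values measure the spread between these samples, which may be technical.

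Hes3 belongs to the Hes/Hey family of basic helix-loop-helix repressors, which bind DNA as dimers and recruit corepressors of the Groucho family. Most Hes factors are induced by Notch. Hes3 has been described mainly in neural progenitors, where it is regulated through other signals as well, and in the pancreatic islet. siRNA lowers a transcript by guiding its cleavage, so the transcript is the first check of the label.

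No fall of the Hes3 transcript was measured. Its log2 signal was 7.25, 7.31, 7.27 and 7.18 in the Hes3-labelled arrays 1, 2, 5 and 7, and 7.14, 7.22, 7.23 and 7.25 in the scrambled arrays 1 to 4. These ranges overlapped. The means were 7.25 ± 0.0534 and 7.21 ± 0.0495 (SD, n = 4 each), a log2 difference of 0.04 with a standard error (SE) of 0.0646 and an adjusted p of 0.609 by limma. On the deposited values the difference was 0.15 (limma adjusted p = 0.114), and cyclic loess normalization turned the sign, to -0.02. The probe set stood at the 29.8th percentile of mean signal, among the dimmer genes. Where the siRNA cuts relative to the probes was not analysed here. Every direction below is therefore between arrays labelled Hes3 siRNA and arrays labelled scrambled. Hes1, the best-known Notch-induced member of the family, had a log2 difference of 0.17 (SE 0.0672, limma adjusted p = 0.0709). Hes5, another Notch target, chosen after its values were seen, was higher by 0.46 (SE 0.0985, limma adjusted p = 0.00621), and without the Hes3-labelled arrays 1 and 5 its adjusted p was 0.0997.

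The labels gave 5735 of 19938 genes (28.8%) an adjusted p under 0.05 in DC after quantile normalization. Of these, 3383 (17%) were higher and 2352 (11.8%) lower in the Hes3-labelled arrays. Over all genes, the arrays of the 2 labels did not overlap in 5693 of 19938 (28.6%). Most differences were small: the median size among the called genes was 0.264 on the log2 scale, and 172 genes (0.863%) were called and at least 1.5-fold apart, 13 higher (0.0652%) and 159 lower (0.797%). The split depended on the scaling, with 1694 higher (8.5%) and 2603 lower (13.1%) after cyclic loess (21.6% in all). On the deposited values, 5769 (28.9%) were higher and 3639 (18.3%) lower (47.2% in all), and where arrays were only centred on their median 2906 were higher and 5022 lower. The larger changes were therefore mostly decreases, and the count of increases moved with the normalization.

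The 4 Hes3-labelled arrays were unequal. On the first principal component of the 8 arrays, which held 63.8% of the variance, arrays 1 and 5 stood at 26 and 20.4, arrays 2 and 7 at 5.1 and 2.44, and the scrambled arrays between -19.8 and -10. The deposited values also spread less in the Hes3-labelled arrays, with a mean SD over probe sets of 1.786 against 1.839 (two-sided exact permutation test over 70 regroupings, p = 0.0286, the smallest the design allows). Without arrays 1 and 5, 286 genes (1.43%) were called, 46 higher (0.231%) and 240 lower (1.2%). All 5735 called genes kept their sign in that fit, which shares 6 of its 8 arrays with the full one, and 284 kept the call. Leaving out scrambled array 1 gave 2640 calls, and leaving out scrambled array 4 gave 3408. The count was 2868 without Hes3-labelled array 5 and 3432 without Hes3-labelled array 1. The description below therefore rests mainly on the 272 genes (1.36%) called in the same direction in 12 settings: as reported, on the deposited values, after cyclic loess, without arrays 1 and 5, and without each of the 8 arrays in turn. They are called the stable genes here, and 227 were lower (1.14%) and 45 higher (0.226%). In bulk RNA, fewer cells of a type and less RNA per cell cannot be told apart.

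**Figure D1:**
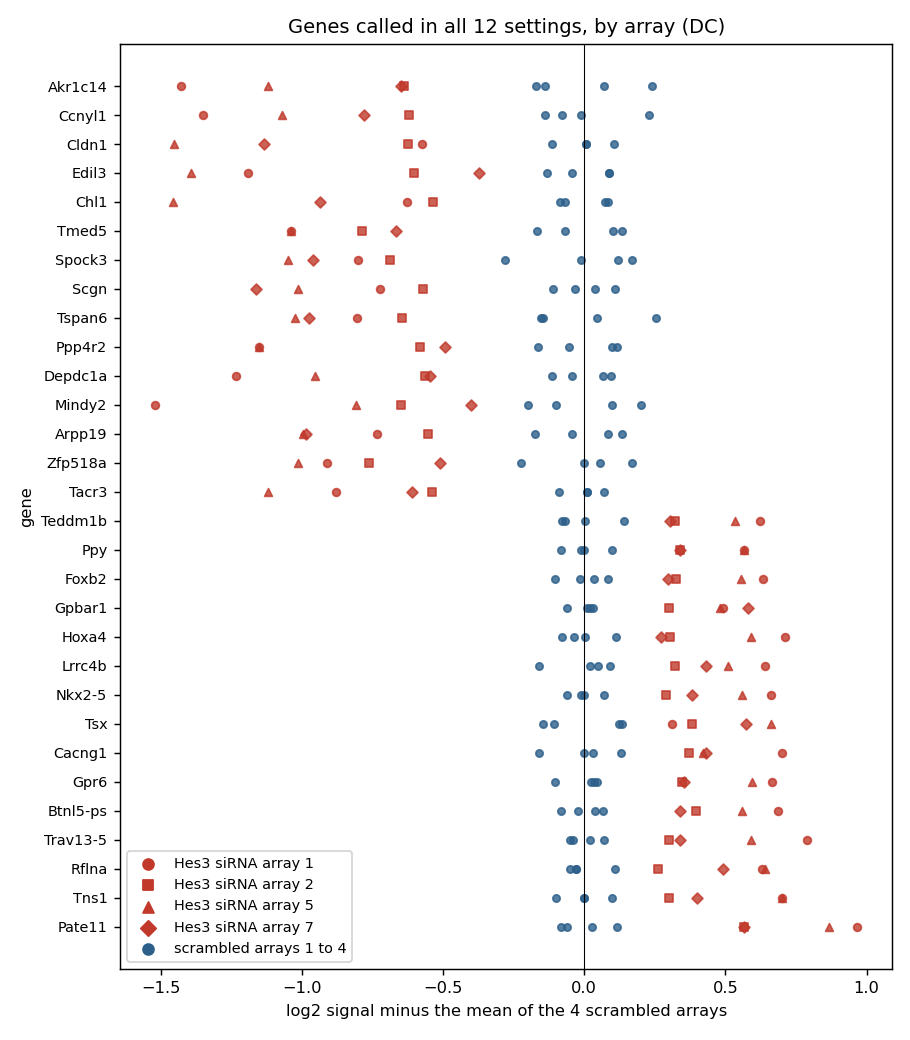
Log2 signal of the 15 largest stable decreases and 15 largest stable increases in each DC array, minus the mean of the 4 scrambled arrays (x axis); each row is a gene, red symbols are the 4 Hes3-labelled arrays and blue points the 4 scrambled arrays. In all 30 rows the red symbols lie on one side of the blue points, and arrays 1 and 5 are often, though not always, farthest from them. The rows were chosen on these same arrays, and 28.6% of all genes had no overlap of the labels.

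The decreases were led by Scoc, whose product is a coiled-coil protein of the Golgi that takes part in autophagy. Its log2 signal was 8.30, 9.16, 8.43 and 9.09 in the Hes3-labelled arrays (in the order 1, 2, 5, 7, as throughout) and 10.4, 9.67, 9.67 and 9.92 in scrambled arrays 1 to 4. The groups did not overlap, and arrays 1 and 5 were the lowest. The difference was -1.17 (SE 0.211), or 2.25-fold lower (limma adjusted p = 0.00348), and without arrays 1 and 5 it was -0.80 with an adjusted p of 0.0662. Scoc was thus the largest decrease in DC but was not among the stable genes.

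Akr1c14 was the largest stable decrease. It encodes a 3-alpha-hydroxysteroid dehydrogenase of the aldo-keto reductase family. Signal was 7.46, 8.25, 7.77 and 8.24 in the Hes3-labelled arrays and 9.13, 8.75, 8.72 and 8.96 in the scrambled arrays. Every Hes3-labelled array was below every scrambled one. Akr1c14 was 1.94-fold lower, with a log2 difference of -0.96 (SE 0.157, limma adjusted p = 0.00281) and of -0.66 without arrays 1 and 5 (adjusted p = 0.0342). In the RefSeq gene order, 8 measured Akr1c genes lie together. Of these, 4 were lower: Akr1c14, Akr1c12 by -0.81, Akr1c13 by -0.50 and Akr1c18 by -0.45, the last of which inactivates progesterone. Over all genes 11.8% were lower. Akr1c12, Akr1c13 and Akr1c18 were chosen after their values were seen. They were not stable, with limma adjusted p of 0.0856, 0.0778 and 0.17 without arrays 1 and 5. The other 4 (Akr1c19, Akr1c6, Akr1c20 and Akr1c21) were not called, with differences from -0.06 to 0.03. The mean signals of these 4 over the 12 arrays were 5.29 to 6.40, within the dimmest of 4 equal bins of genes. The paralogs are similar in sequence, and probe sets may take up signal of one another, so how many of the 4 decreases are separate is uncertain.

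Of the other named decreases, 6 genes of the cell surface or the space outside the cell are described next. Cldn1, a tight junction claudin, had signals of 9.52, 9.47, 8.64 and 8.96 in the Hes3-labelled arrays and 10.1, 9.98, 10.1 and 10.2 in the scrambled arrays. Here array 5 and array 7 were the lowest, not array 1. Cldn1 was 1.93-fold lower (log2 -0.95, SE 0.147, limma adjusted p = 0.00248), and -0.89 without arrays 1 and 5. Chl1, a neural adhesion molecule of the L1 family, had signals of 8.60, 8.69, 7.77 and 8.29 against 9.31, 9.16, 9.14 and 9.30. The groups were apart, and the fall was 1.85-fold (log2 -0.89, SE 0.144, limma adjusted p = 0.00267). Edil3, a secreted integrin ligand, fell by 0.90 on the log2 scale (SE 0.170, limma adjusted p = 0.00438). Spock3, a proteoglycan of the testican family, had signals of 8.11, 8.22, 7.86 and 7.95 against 9.08, 8.90, 8.63 and 9.03, and fell by 0.87 (SE 0.0992). It was nearly as low without arrays 1 and 5, by 0.85. Tspan6, a tetraspanin, fell by 0.86 (SE 0.113), and Tacr3, the neurokinin B receptor, by 0.79 (SE 0.112), with Tacr3 signals of 7.65, 7.99, 7.41 and 7.92 against 8.44, 8.60, 8.54 and 8.54. All 6 of these genes were among the stable ones.

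Scgn was another stable decrease. It encodes secretagogin, an EF-hand protein abundant in islet cells. Its signal was 8.83, 8.98, 8.54 and 8.39 in the Hes3-labelled arrays and 9.66, 9.44, 9.52 and 9.59 in the scrambled arrays. The lowest value was in array 7, the Hes3-labelled array least far from the scrambled ones on the first component. Scgn was 1.83-fold lower (log2 -0.87, SE 0.125, limma adjusted p = 0.00214), and the difference was -0.89 without arrays 1 and 5. Vsnl1, which encodes visinin-like protein 1 and was chosen after its values were seen, had signals of 9.93, 9.90, 9.48 and 8.97 against 10.4, 10.2, 10.3 and 10.3. It also was lowest in array 7, and fell by 0.75 (SE 0.172, limma adjusted p = 0.00808). B2m, the light chain of MHC class I, was likewise picked from its values and had signals of 7.60, 7.84, 7.18 and 6.99 against 8.22, 8.01, 8.16 and 8.32. Arrays 5 and 7 were again the lowest. B2m fell by 0.78 (SE 0.163, limma adjusted p = 0.00611), and its adjusted p was 0.0675 without arrays 1 and 5.

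Arpp19, a stable decrease, acts with Mastl, which was also lower. Mastl, the Greatwall kinase, phosphorylates Arpp19, which then inhibits the phosphatase PP2A-B55 and so permits mitotic entry. Arpp19 signal was 8.60, 8.78, 8.34 and 8.35 in the Hes3-labelled arrays and 9.47, 9.16, 9.29 and 9.42 in the scrambled arrays. Mastl, chosen after its values were seen, had signals of 7.42, 7.89, 7.58 and 7.44 against 8.50, 8.22, 8.26 and 8.24. Neither gene's groups overlapped. Arpp19 fell by 0.82 on the log2 scale (SE 0.134, limma adjusted p = 0.00281) and Mastl by 0.72 (SE 0.109, limma adjusted p = 0.00224), and both were stable. Cenpq, a protein of the inner kinetochore, fell by 0.93 (SE 0.166, limma adjusted p = 0.00334), with an adjusted p of 0.0608 without arrays 1 and 5. Mzt1, which recruits gamma-tubulin rings to spindle poles, fell by 0.86 (SE 0.144) and missed the threshold without arrays 1 and 5 as well (adjusted p = 0.0556). Cenpp and Cenpw, picked from the stable genes after seeing them, fell by 0.69 and 0.68. Depdc1a, which is expressed in mitotic cells, fell by 0.82 (SE 0.121) and was stable. The kinesin motor genes, among which are several mitotic ones, had 13 of 38 members (34.2%) lower and 4 higher, with a median of -0.106 against 0.066 over all genes. Of all genes 11.8% were lower, and 19.4% in the third of 4 equal bins of signal, where the family's median lies. The median log2 fold change of that bin was 0.011. Kif18a (-0.51) and Kif3a (-0.43) were the lowest, and Kif12 rose by 0.46. The kinesins and these members lie outside the naming rule and were picked after their values were seen. In the fit without arrays 1 and 5, 1 of the 38 was called lower.

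Other large stable decreases had varied roles. Ccnyl1, a cyclin Y-like protein, had signals of 7.02, 7.75, 7.30 and 7.59 against 8.60, 8.23, 8.29 and 8.36, with no overlap. It was 1.93-fold lower (log2 -0.95, SE 0.150, limma adjusted p = 0.00255). Tmed5, a cargo protein of the early secretory pathway, fell by 0.88 (SE 0.125), Ppp4r2, a regulatory subunit of protein phosphatase 4, by 0.85 (SE 0.145), Mindy2, a deubiquitinase, by 0.82 (SE 0.168), and the zinc finger gene Zfp518a by 0.80 (SE 0.106). Zfp975 fell by 0.95 (SE 0.162) but had an adjusted p of 0.0605 without arrays 1 and 5. Of the 272 stable genes, 10 had a symbol beginning with Zfp, of 347 such genes measured, and 5 with Pcdh, of 34 measured. A further 4 began with Cenp, a group whose measured members were not counted. Over all genes, 1.36% were stable.

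A pair of mitochondrial genes with a common ancestor, Tfb1m and Tfb2m, was lower, and was picked after its values were seen. Tfb2m is the transcription factor that melts mitochondrial promoters, and Tfb1m is the methyltransferase of the small mitochondrial ribosomal RNA. Tfb1m had signals of 8.41, 8.65, 8.17 and 8.73 against 9.25, 9.25, 9.13 and 9.30. Tfb2m had signals of 7.64, 7.91, 7.67 and 8.01 against 8.61, 8.44, 8.44 and 8.58. In both genes the scrambled arrays were tight and the Hes3-labelled arrays all lower. They fell by 0.74 (SE 0.109, limma adjusted p = 0.00214) and 0.71 (SE 0.110, limma adjusted p = 0.00248) and were stable. Selenop, the secreted selenium carrier, had one of the most even decreases: 8.97, 9.0, 8.88 and 8.78 against 9.63, 9.69, 9.51 and 9.73. All 4 Hes3-labelled values lay close together, and the fall of 0.73 (SE 0.0761, limma adjusted p = 0.000958) was 0.76 without arrays 1 and 5.

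Increases were smaller. Prp2, a proline-rich protein gene, was the largest named one, at 11.1, 10.4, 10.8 and 10.3 in the Hes3-labelled arrays and 9.89, 10.0, 9.76 and 9.87 in the scrambled arrays. The groups were apart and array 1 was the highest. Prp2 rose 1.69-fold (log2 0.76, SE 0.154, limma adjusted p = 0.00533), but by 0.46 with an adjusted p of 0.0749 without arrays 1 and 5. Pate11, a gene of the prostate and testis expressed family of small secreted proteins, was the largest named stable increase. Its signals were 10.8, 10.4, 10.7 and 10.4 against 9.75, 9.77, 9.95 and 9.86. It rose 1.67-fold (log2 0.74, SE 0.106, limma adjusted p = 0.00214), and by 0.58 without arrays 1 and 5. Among symbols left out of the naming rule, Olfr767, an olfactory receptor gene, rose by 0.79 and was stable.

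Tns1 and Rflna, whose products bind the actin cytoskeleton or its crosslinker filamin, were stable increases. Tns1 signal was 10.8, 10.4, 10.8 and 10.5 against 10.1, 10.0, 10.1 and 10.2, a rise of 0.53 (SE 0.0874, limma adjusted p = 0.00291). Rflna signal was 9.74, 9.37, 9.75 and 9.60 against 9.08, 9.22, 9.06 and 9.08, a rise of 0.51 (SE 0.0811, limma adjusted p = 0.00255). In both, arrays 1 and 5 were highest and the groups did not overlap. Gpbar1, the bile acid receptor TGR5, was more even over the arrays, at 9.32, 9.13, 9.31 and 9.41 against 8.77, 8.86, 8.84 and 8.85. It rose by 0.46 (SE 0.0685, limma adjusted p = 0.00219), and by 0.45 without arrays 1 and 5. Ppy, the pancreatic polypeptide hormone of PP cells, had signals of 9.19, 8.96, 9.19 and 8.96 against 8.54, 8.72, 8.62 and 8.61. It rose by 0.45 (SE 0.0710, limma adjusted p = 0.00255). Tsx, a gene beside the X-inactivation centre, rose by 0.48 (SE 0.0835) and by 0.49 without arrays 1 and 5.

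Transcription factors of other tissues were among the stable increases, at small sizes. Nkx2-5, a cardiac homeobox factor, rose by 0.47 (SE 0.0745), Hoxa4 by 0.47 (SE 0.0871) and the forkhead gene Foxb2 by 0.45 (SE 0.0783). Nkx2-5 signals were 9.43, 9.06, 9.33 and 9.15 against 8.71, 8.84, 8.77 and 8.76, so all 4 Hes3-labelled arrays were above all 4 scrambled ones. The other stable increases named by the rule were the orphan receptor gene Gpr6, the calcium channel subunit gene Cacng1, the synaptic adhesion gene Lrrc4b, the pseudogene Btnl5-ps, the T cell receptor segment Trav13-5, and Teddm1b, with rises of 0.45 to 0.50.

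Agt was high in arrays 5 and 7. It encodes angiotensinogen, the precursor of angiotensin. Its signals were 9.86, 9.95, 10.7 and 10.8 in arrays 1, 2, 5 and 7 and 9.68, 9.84, 9.77 and 9.85 in the scrambled arrays. Arrays 1 and 2 lay just above the scrambled range. The rise of 0.53 (SE 0.159, limma adjusted p = 0.0244) therefore rested on 2 arrays, and without arrays 1 and 5 it was 0.59 with an adjusted p of 0.0685. Among bright genes chosen after their values were seen, Arf1, a small GTPase of the Golgi, was even: 12.2, 12.3, 12.3 and 12.3 against 12.0, 12.0, 11.9 and 11.9. It rose by 0.35 (SE 0.0589, limma adjusted p = 0.00317).

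The remaining large increases were not stable. Krtap10-10 and Krtap5-3, hair keratin-associated proteins, rose by 0.64 (SE 0.119) and 0.61 (SE 0.106). Upk2, a urothelial membrane protein, rose by 0.57 (SE 0.114), Megf6 by 0.56 (SE 0.109), the guanine nucleotide exchange factor Dock6 by 0.56 (SE 0.119), Tmem213 by 0.53 (SE 0.119), the postsynaptic scaffold Shank2 by 0.51 (SE 0.0946), the matrix protein Emilin3 by 0.50 (SE 0.106), and C2cd4a, a gene near a diabetes association signal, by 0.49 (SE 0.105). Each of these 9 missed the threshold without arrays 1 and 5, with adjusted p of 0.0590 to 0.104 by limma.

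Genes were next grouped into 112 families by symbol, of which 110 had at least 8 measured members, and ranked by the share called in either direction. Because the families were ranked on these values, their shares are descriptions and carry no test. The share called also depended on brightness. In 4 equal bins of mean signal, from dim to bright, 12.6%, 25%, 21.8% and 8.41% were higher and 1.77%, 9.83%, 19.4% and 16.2% lower. The median log2 fold change in these bins was 0.097, 0.116, 0.011 and -0.023. Each family's count is set beside the share in the bin that holds the family's median signal.

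**Figure D2:**
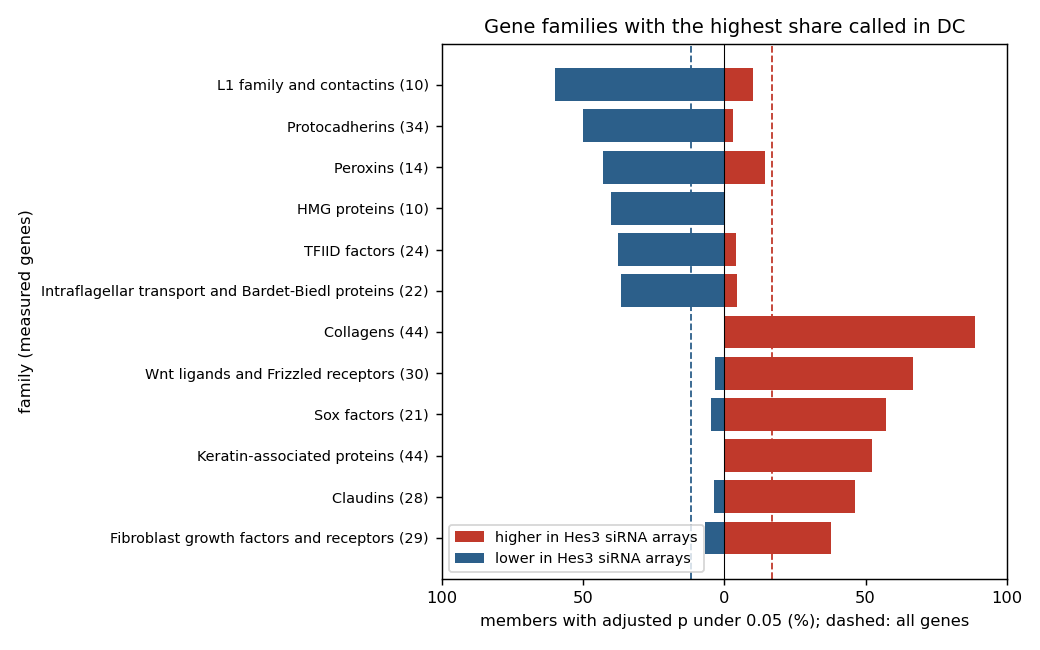
Share of measured members called lower (blue, to the left) or higher (red, to the right) in DC, in percent, for the 6 families with the highest share lower and the 6 with the highest share higher; the number of measured members is in brackets. Dashed lines mark the shares over all genes, 11.8% lower and 17% higher. The L1 and contactin genes reach 60% lower and the collagens 88.6% higher.

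Adhesion molecules of neurons headed the lower families. Of 10 genes of the L1 family and the contactins, 6 were lower (60%) and 1 higher, with a median of -0.204. The median was 0.066 over all genes and 0.011 in the family's signal bin, where 19.4% were lower. L1cam, which mediates axon growth, had signals of 9.13, 9.14, 8.90 and 8.75 against 9.38, 9.44, 9.40 and 9.37. The scrambled arrays lay within a narrow band and the Hes3-labelled arrays all below it. L1cam fell by 0.41 (SE 0.0753, limma adjusted p = 0.00372), and by 0.46 without arrays 1 and 5. Cntn3 fell by 0.37 (SE 0.0771), Nrcam by 0.26 (SE 0.0855), Cntn4 by 0.22 and Cntn1 by 0.19, while Cntn5 rose by 0.17. Nfasc, Cntn2 and Cntn6 were not called. Chl1 and L1cam were the 2 members still called without arrays 1 and 5.

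Protocadherins, cadherin-like proteins that give neurons their surface identity, had 17 of 34 measured genes lower and 1 higher, against 9.83% lower in the signal bin of their median. Their median was -0.191, and -0.261 after cyclic loess. Pcdh10 had signals of 8.23, 8.39, 7.94 and 7.80 against 8.75, 8.68, 8.56 and 8.77, with no overlap. It fell by 0.60 (SE 0.101, limma adjusted p = 0.00304), and by 0.61 without arrays 1 and 5. Pcdh19 fell by 0.35, Pcdh15 by 0.44 and Pcdh20 by 0.18, and Pcdh12 rose by 0.28. The other 13 lower genes all belonged to the beta cluster.

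Within the beta cluster the first 5 genes in order differed from most of the rest, a pattern that was noticed after the values were seen. The first 5 genes, Pcdhb1 to Pcdhb5, had differences of 0.06 to 0.16 and none was called. The medians over all genes in the signal bins that hold them were 0.097 and 0.116. Pcdhb1 turned to -0.08 without arrays 1 and 5. Of the 17 from Pcdhb6 on, 13 were lower, with a median of -0.41 and a range of -0.65 to 0.03. Pcdhb20 had signals of 7.76, 8.14, 7.79 and 8.17 against 8.62, 8.61, 8.43 and 8.62, without overlap. It fell by 0.61 (SE 0.0882, limma adjusted p = 0.00214). Pcdhb18 fell by 0.65 (SE 0.128, limma adjusted p = 0.00490), but its array 7, at 8.91, overlapped the scrambled range of 8.90 to 9.14. Pcdhb19 fell by 0.53 and Pcdhb6 by 0.52. Of the lower genes, only Pcdhb6, Pcdhb10, Pcdhb17 and Pcdhb20 were stable. Pcdhb7, Pcdhb9, Pcdhb13 and Pcdhb15, scattered among the lower genes, were the 4 that were not called. The mean signals were 5.87 to 7.68 for the first 5 genes and 5.04 to 9.97 for the rest. Of the first 5, 4 lay below 7.00, and no called gene did. The brightest gene, Pcdhb15 (9.97), was not called. Pcdhb4 (7.68), also not called, was brighter than some called genes, such as Pcdhb12 (7.33). The part of signal level in the division was not tested. The beta genes are single-exon paralogs of like sequence, and signal shared between their probe sets was not tested.

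**Figure D3:**
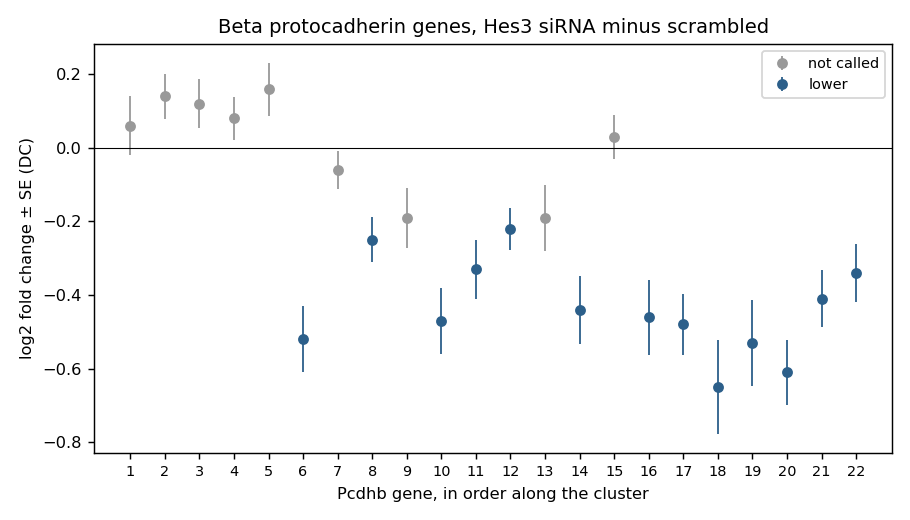
Log2 fold change in DC (y axis, arrays labelled Hes3 siRNA minus scrambled, with the SE of the fit as bars) for the 22 beta protocadherin genes in their order along the cluster (x axis); blue points are called lower and grey points are not called. The first 5 lie above 0 and Pcdhb18 is the lowest, at -0.65.

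The glutathione S-transferases of the mu class also had lower and uncalled genes side by side, again noticed after the values were seen. These enzymes conjugate glutathione to electrophiles. Of 7 adjacent genes, 5 were lower: Gstm3 by -0.43, Gstm5 by -0.41, Gstm4 by -0.37, Gstm1 by -0.36 and Gstm2 by -0.32. The whole glutathione S-transferase family had 5 of 18 genes lower (27.8%) and 1 higher, with a median of 0.060. Of all genes 11.8% were lower, and 9.83% in the signal bin of the family's median. Gstm7 and Gstm6, which lie between Gstm5 and Gstm3 in the gene order, had differences of 0.01 and 0.13 and were not called. The 5 genes kept differences of -0.51 to -0.28 without arrays 1 and 5, with adjusted p of 0.0662 to 0.191. The cross-reaction caveat of the other clusters holds here.

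Peroxins, the proteins that build peroxisomes and import their enzymes, had 6 of 14 genes (42.9%) lower and 2 higher, against 19.4% lower and 21.8% higher in their signal bin. Pex3, which places proteins in the peroxisomal membrane, had signals of 8.99, 9.27, 8.82 and 9.39 against 9.72, 9.58, 9.58 and 9.57. The groups were apart by a small margin. Pex3 fell by 0.50 (SE 0.104, limma adjusted p = 0.00589). Pex2, a ubiquitin ligase of the import machinery, fell by 0.55 (SE 0.136), Pex7, the receptor for the second targeting signal, by 0.36 (SE 0.0833), and Pex11a by 0.29 (SE 0.0665). Pex11g and Pex6 rose by 0.28 and 0.21. The family median was -0.064, and 0 members were called without arrays 1 and 5. The pattern also took in Pex5l, which encodes a neuronal relative of the import receptor.

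High mobility group genes, whose products bend DNA or bind nucleosomes, had 4 of 10 (40%) lower and 0 higher, against 19.4% lower in the same bin. Hmgn5 had the largest difference, with signals of 6.25, 6.42, 5.55 and 6.04 against 6.81, 7.01, 6.83 and 7.40. It was 1.93-fold lower (log2 -0.95, SE 0.197, limma adjusted p = 0.00589), and lost the call without arrays 1 and 5 (adjusted p = 0.0708). Hmgb2 fell by 0.36, Hmgb1 by 0.35 and Hmgb3 by 0.22. Hmgn1 and Hmgn2, at 0.11 each, were not called.

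TFIID is the complex that places RNA polymerase II at promoters, and 9 of 24 genes of the Taf pattern (37.5%) were lower and 1 higher, against 19.4% lower in the same bin. Taf9b led, with signals of 9.89, 10.1, 9.35 and 9.83 against 10.4, 10.6, 10.4 and 10.6, a fall of 0.69 (SE 0.144, limma adjusted p = 0.00589). Its paralog Taf9 fell by 0.40 (SE 0.0980), Taf2 by 0.35 and Taf1b by 0.33. Taf1b belongs to the RNA polymerase I factor SL1 and not to TFIID, and the pattern also holds Taf1a, Taf1c, Taf1d, Taf15, Taf5l and Taf6l. No member was called without arrays 1 and 5. Cilium genes of intraflagellar transport and the Bardet-Biedl proteins had 8 of 22 (36.4%) lower and 1 higher, with a median of -0.106. Their bin is again the one with 19.4% lower. Bbs5 fell by 0.45 (SE 0.102), Ift74 by 0.39, Bbs4 by 0.31 and Bbs2 by 0.31. Bbs5 signals were 7.49, 7.75, 7.28 and 7.73 against 8.02, 7.89, 8.07 and 8.07. The groups did not overlap, and again 0 of the 22 genes were called without arrays 1 and 5.

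Collagens had the highest share called of the ranked families. These matrix proteins are made mainly by mesenchymal cells. Of 44 measured collagen genes, 39 were higher and 0 lower, 88.6% against 21.8% in the signal bin of their median. All 44 differences were above 0, and all 44 stayed above 0 without arrays 1 and 5, although only Col1a1 was then called. The median was 0.302, against 0.228 after cyclic loess, 0.232 after median centring and 0.206 without arrays 1 and 5. Col1a1 had signals of 9.22, 8.94, 9.18 and 8.92 against 8.57, 8.60, 8.68 and 8.65. It rose by 0.44 (SE 0.0734, limma adjusted p = 0.00304), or 1.35-fold. Col9a2 rose by 0.41 (SE 0.0857), Col2a1 by 0.41 (SE 0.0823) and Col23a1 by 0.41 (SE 0.0786). The median over the collagens stood 0.437, 0.224, 0.359 and 0.176 above the scrambled mean in arrays 1, 2, 5 and 7. Scrambled array 1 stood at -0.081 and the other scrambled arrays at 0.020 to 0.030. The differences were small in each gene and also present in collagens of the basement membrane, with Col4a1 and Col4a2 at 0.31 each.

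Other families of developmental signals leaned the same way. Wnt ligands and their Frizzled receptors had 20 of 30 (66.7%) higher and 1 lower, with a median of 0.228 (0.159 after cyclic loess). In the signal bin of these and of the Sox and fibroblast growth factor genes, 25% of all genes were higher. The median log2 fold change of that bin was 0.116. Wnt9b, the stable one among the ligands, had signals of 8.42, 8.27, 8.36 and 8.21 against 7.86, 7.98, 7.93 and 8.02, a rise of 0.37 (SE 0.0619, limma adjusted p = 0.00304). Wnt5b rose by 0.41 (SE 0.0899), Wnt10a by 0.39 (SE 0.0843) and Wnt4 by 0.36 (SE 0.0669). Fzd7 was the exception, with a fall of 0.29 that was stable. Sox factors, which bind DNA through an HMG box, had 12 of 21 (57.1%) higher and 1 lower. Sox3 rose by 0.37 (SE 0.0884), Sox13 by 0.34 (SE 0.0707), Sox18 by 0.30 (SE 0.0993) and Sox14 by 0.29 (SE 0.0711), while Sox4 fell by 0.22. Fibroblast growth factors and receptors had 11 of 29 (37.9%) higher and 2 lower, with Fgf8 at 0.41 (SE 0.0868), Fgf23 at 0.36 (SE 0.0696), Fgf11 at 0.33 (SE 0.0858) and Fgfrl1 at 0.28 (SE 0.0864). Fgf12 fell by 0.25, and the other lower gene, Fgfr1op2, is no member by function. After cyclic loess the higher calls numbered 11 for the Wnt and Frizzled, 7 for the Sox and 6 for the fibroblast growth factor genes, and without arrays 1 and 5 they numbered 1, 0 and 0. The symbol patterns also took in the antisense and overlapping transcripts Fgf2os, Fzd10os, Sox6os and Sox1ot. The labelling is not stated to keep strand apart.

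Claudins were split. Of 28 measured genes, 13 were higher (46.4%, against 25% in their signal bin) and 1, Cldn1, was lower. Their median was 0.174, against 0.116 over all genes of that bin. Cldn4 rose by 0.37 (SE 0.0977), Cldn3 by 0.35 (SE 0.0787), Cldn19 by 0.26 (SE 0.0742) and Cldn6 by 0.25 (SE 0.0673). After cyclic loess 6 claudins were higher and 2 lower. With arrays 1 and 5 left out none was higher and Cldn1 stayed lower (adjusted p = 0.0127).

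Keratin-associated proteins of hair had 23 of 44 (52.3%) higher and 0 lower, against 12.6% higher in their signal bin, with a median of 0.192. Krtap10-10 had signals of 9.30, 8.83, 9.15 and 8.70 against 8.31, 8.51, 8.41 and 8.19, without overlap. Krtap17-1 rose by 0.47 (SE 0.0899) and Krtap3-1 by 0.46 (SE 0.109). Olfactory receptor genes, which are silent in most tissues, were also called higher in 198 of 1027 cases and lower in 0, at a median of 0.120. Their share of 19.3% compares with 12.6% of all genes in the dimmest bin, where the median over all genes was 0.097. Without arrays 1 and 5, 0 of the 44 keratin-associated genes were called, and 2 olfactory receptor genes were among the stable genes.

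MicroRNA genes moved in both directions. The array measured 300 of them, of which 83 (27.7%) were higher and 19 (6.33%) lower, against 12.6% and 1.77% in the dimmest signal bin, which holds their median. Those probe sets lie on the hairpin, so the 2 arms of a hairpin, and the precursor and mature forms, cannot be told apart. The mature forms below are RefSeq's (GRCm38.p6), shown for some of the larger differences in each direction and for pairs that share a seed, and were chosen after the values were seen. Other microRNAs with differences of like size, such as Mir465 (-0.71), Mir350 (-0.68) and Mir667 (0.55), are not shown. Capitals mark the seed, bases 2 to 8, with which a microRNA pairs to its targets. The first 7 hairpins were lower in the Hes3-labelled arrays and the last 5 higher.
mmu-miR-421-5p (chrX:103572966-103572986, minus strand): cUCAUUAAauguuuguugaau
mmu-miR-384-5p (chrX:105344332-105344354, minus strand): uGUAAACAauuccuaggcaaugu
mmu-miR-568 (chr16:43640665-43640684, plus strand): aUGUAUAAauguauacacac
mmu-miR-186-5p (chr3:157544285-157544306, plus strand): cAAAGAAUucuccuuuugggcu
mmu-miR-15b-5p (chr3:69009775-69009796, plus strand): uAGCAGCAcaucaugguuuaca
mmu-miR-16-5p (chr14:61631936-61631957, minus strand): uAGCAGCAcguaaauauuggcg
mmu-miR-181b-5p (chr1:137966650-137966673, plus strand): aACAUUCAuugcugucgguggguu
mmu-miR-181d-5p (chr8:84178759-84178781, minus strand): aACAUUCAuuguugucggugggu
mmu-miR-483-3p (chr7:142654932-142654952, minus strand): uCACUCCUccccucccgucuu
mmu-miR-346-5p (chr14:34894624-34894646, plus strand): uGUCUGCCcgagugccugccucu
mmu-miR-92b-3p (chr3:89227126-89227147, minus strand): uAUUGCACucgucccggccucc
mmu-miR-210-3p (chr7:141221407-141221428, minus strand): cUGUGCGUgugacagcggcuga

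Mir421 had the largest fall, with signals of 5.51, 6.67, 6.0 and 7.25 against 7.60, 7.14, 7.09 and 7.32. Array 7 lay inside the scrambled range, and arrays 1 and 5 far below it. The fall was 0.93 (SE 0.257, limma adjusted p = 0.0178), but 0.32 without arrays 1 and 5 (adjusted p = 0.244). Mir384 fell by 0.86 (SE 0.263), Mir568 by 0.73 (SE 0.141) and Mir186 by 0.66 (SE 0.168). Mir15b and Mir16-1, whose mature forms share the seed AGCAGCA, fell by 0.60 (SE 0.154) and 0.34 (SE 0.0829). Mir181b-1 and Mir181d share the seed ACAUUCA and moved apart, the first falling by 0.54 (SE 0.174) and the second rising by 0.57 (SE 0.102). Mir181d signals were 10.2, 9.82, 10.1 and 9.83 against 9.30, 9.48, 9.45 and 9.43. A shared seed thus did not go with a shared direction in that pair.

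Mir483 had the largest rise, with signals of 10.2, 9.55, 9.96 and 9.56 against 9.06, 9.27, 9.18 and 9.04. The groups did not overlap. It rose by 0.67 (SE 0.129, limma adjusted p = 0.00456), and by 0.42 without arrays 1 and 5 (adjusted p = 0.0690). Mir346 rose by 0.59 (SE 0.108), Mir92b by 0.58 (SE 0.103) and Mir210, known for its induction in low oxygen, by 0.53 (SE 0.105). Without arrays 1 and 5, 2 microRNAs were called higher and 0 lower.

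The direction went with the base composition of the hairpin, for the 258 microRNAs with a hairpin in RefSeq. In the lowest of 4 equal bins of G and C (28.4 to 42.4%), 1.54% were higher and 15.4% lower. In the next bins 10.9% and 25.0% were higher, and 9.38% and 4.69% lower. In the highest (53.7 to 69.2%) 66.2% were higher and 0 were lower. The median signals of the bins rose with G and C, at 4.95, 5.95, 6.91 and 8.36. Of all genes, 12.6% were higher and 1.77% lower in the dimmest signal bin, which holds 4.95, 5.95 and 6.91. In the signal bin that holds 8.36, 21.8% were higher and 19.4% lower. Among these 258, the 8 microRNAs that rose by at least 0.5 all had hairpins of 48.6% or more, and the 8 that fell by at least 0.5 had 45% or less. The hairpins of Mir568 and Mir346 are printed to show the contrast, with G and C in capitals, 31.3% and 65.3% of the bases.
Mir568 hairpin (chr16:43640655-43640737, plus strand): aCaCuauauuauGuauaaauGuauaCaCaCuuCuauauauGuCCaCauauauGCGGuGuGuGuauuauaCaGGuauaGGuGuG
Mir346 hairpin (chr14:34894609-34894706, plus strand): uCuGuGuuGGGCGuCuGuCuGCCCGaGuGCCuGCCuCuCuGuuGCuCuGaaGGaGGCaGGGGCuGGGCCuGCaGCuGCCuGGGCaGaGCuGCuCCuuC

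Across these microRNAs, which share the same arrays and are not independent replicates, the log2 fold change and hairpin G and C content had a Pearson correlation of 0.569 (Spearman 0.578, n = 258). It was 0.546 after cyclic loess and 0.590 without arrays 1 and 5. Each Hes3-labelled array alone, against the scrambled mean, gave 0.512 to 0.548. The scrambled arrays, each against the other 3, gave -0.408, 0.318, 0.111 and 0.143, so array 1 of the scrambled group leaned the opposite way by a comparable amount. In CC the value was 0.197. G and C content also went with mean signal, at 0.737, and the correlation was 0.668 in the brighter 129 microRNAs and 0.323 in the dimmer 129. Whether hybridization of probes rich in G and C takes part in this was not tested.

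**Figure D4:**
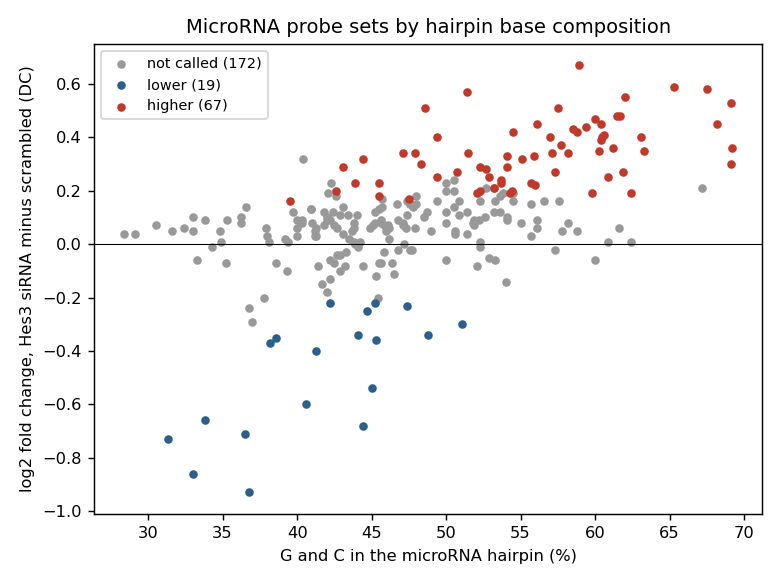
Log2 fold change in DC (y axis, arrays labelled Hes3 siRNA minus scrambled) against the percent of G and C in the RefSeq hairpin (x axis) for 258 microRNA genes; red points are called higher (67), blue points lower (19) and grey points not called (172). Red points gather at the right and blue points at the left, with a Pearson correlation of 0.569.

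Hes factors are known to bind the N-box, CACNAG, and the class C site, CACGCG, and related factors the E-box, CACGTG. The RefSeq promoter window of 250 bases before to 50 after the start was searched on both strands for these letters, and 15614 of the 19938 genes had a window. The 3 patterns do not contain one another. The N-box letters were in 41.7% of all windows, 38.8% of those of lower genes and 45.3% of those of higher genes. They were in 45.8% of the windows of stable decreases and in 20 of 28 (71.4%) of those of stable increases. CACGCG was in 13.3% of all windows, 17.3% of those of lower genes and 10.3% of those of higher genes. It was in 20.1% of stable decreases and 10.7% of stable increases. CACGTG was in 8.38% of all windows, 8.94% of stable decreases and 0% of stable increases. Median G and C content was 57.7% for all genes, 60.7% for stable decreases and 55.0% for stable increases, and its part in the motif shares was not tested. These shares are counts of letters in gene sets chosen by their values, with no test.

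The 250 bases before the start are shown for Cldn1, the only stable claudin, and 3 stable increases, with each N-box match in capitals (RefSeq, GRCm38.p6). These are examples that have a match and were not drawn by a rule. They do not show how common the letters are among stable genes.
Cldn1 (chr16:26371840-26372089, minus strand): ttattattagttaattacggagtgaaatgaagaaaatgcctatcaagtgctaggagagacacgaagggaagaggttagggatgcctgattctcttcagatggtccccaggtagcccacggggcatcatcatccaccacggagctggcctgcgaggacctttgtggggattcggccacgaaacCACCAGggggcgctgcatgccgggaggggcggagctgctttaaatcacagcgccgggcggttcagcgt
Pate11 (chr9:36475333-36475582, plus strand): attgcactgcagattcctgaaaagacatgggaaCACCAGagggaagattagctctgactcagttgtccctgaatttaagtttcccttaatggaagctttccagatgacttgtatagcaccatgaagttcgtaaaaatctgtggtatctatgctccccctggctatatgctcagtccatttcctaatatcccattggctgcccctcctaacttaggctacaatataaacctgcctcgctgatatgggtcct
Tns1 (chr1:74124549-74124798, minus strand): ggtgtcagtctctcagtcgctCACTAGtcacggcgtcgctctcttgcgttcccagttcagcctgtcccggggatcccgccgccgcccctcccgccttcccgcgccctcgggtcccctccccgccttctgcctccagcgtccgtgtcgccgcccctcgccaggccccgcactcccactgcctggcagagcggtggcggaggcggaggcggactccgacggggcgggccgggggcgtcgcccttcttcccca
Tsx (chrX:103414217-103414466, plus strand): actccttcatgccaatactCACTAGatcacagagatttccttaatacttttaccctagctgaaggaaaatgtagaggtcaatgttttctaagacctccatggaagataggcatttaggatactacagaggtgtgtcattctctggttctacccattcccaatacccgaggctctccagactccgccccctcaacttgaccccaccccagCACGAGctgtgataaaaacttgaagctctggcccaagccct

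Cldn1, Pate11 and Tns1 have 1 match each in these bases and Tsx has 2. G and C make up 55.6% of the Cldn1 stretch, 44.4% of that of Pate11, 74.4% of that of Tns1 and 47.2% of that of Tsx. The letters alone do not show a bound site.

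The beta cell character of the line was measured alongside. All listed beta cell markers but Slc2a2 stood at the 90.3rd percentile of mean signal or above, with Ins2, an insulin gene, at the 99.8th. Slc2a2, a glucose transporter gene, was at the 39.3rd. Of 12 such markers, 0 were higher and 2 lower, with a median of -0.02, and 0 were called without arrays 1 and 5. In the brightest signal bin 16.2% of all genes were lower, a share near that of the markers. Ins2 had signals of 12.9, 12.9, 12.9 and 12.9 against 12.8, 12.8, 12.9 and 12.9, and a difference of 0.02 (SE 0.0490, limma adjusted p = 0.811) whose sign turned on the deposited values (-0.05). Pdx1, the pancreatic homeobox factor, had a difference of -0.08 (SE 0.0757) and Mafa, an activator of insulin genes, one of -0.01 (SE 0.0758). Both missed the threshold, and their signs turned under some alternatives. Neurod1, a factor of endocrine cells, fell by 0.32 (SE 0.0682, limma adjusted p = 0.00612), with signals of 10.9, 11.2, 11.2 and 11.3 against 11.5, 11.4, 11.4 and 11.5. Iapp, amylin, fell by 0.16 (limma adjusted p = 0.0479).

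Markers of other cells were called higher in part, against 17% of all genes. Of the delta, PP and epsilon markers, 3 of 4 were higher: Ppy by 0.45, Sst, somatostatin, by 0.37 and Ghrl, ghrelin, by 0.25. The glucagon gene Gcg, at the 99.2nd percentile of signal, had a difference of 0.05 and was not called. Of fibroblast and matrix markers 4 of 7 were higher (Col1a1, Col1a2, Col3a1 and Sparc), while Dcn and Lum, defining fibroblast genes, had differences of 0.04 and -0.01. The fibroblast list's array medians were 7.84 to 8.26 in the Hes3-labelled arrays and 7.65 to 7.71 in the scrambled arrays. Lum was at the 5.9th percentile of signal. Duct markers were higher in 3 of 3 cases, acinar in 2 of 5, macrophage in 2 of 6, endothelial in 1 of 4 and alpha cell markers in 1 of 3. In the 3 dimmer signal bins 12.6% to 25% of all genes were higher, and the endothelial and alpha cell shares rest on 1 gene each. Without arrays 1 and 5, 1 fibroblast marker and 1 of the delta, PP and epsilon group were called. The part of other cell types in the results was not tested.

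The same siRNA labels were compared in CC with 2 arrays each, and no gene was called there (limma, 503 genes or 2.52% at an unadjusted p under 0.05). The difference between the DC and CC changes was then fitted directly. It gave 0 calls, with a smallest adjusted p of 0.165 and 2796 genes (14%) at an unadjusted p under 0.05. Leaving out CC scrambled array 2 gave 950 calls. The genes called in DC are thus not shown to differ from CC by this test, and CC had few arrays.

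Side by side, the stable genes were near 0 in CC. The 227 stable decreases had a median of -0.492 in DC and -0.015 in CC, where 124 of them lay below 0. The 45 stable increases had medians of 0.423 and 0.082, and 40 of them lay above 0 in CC, against a median of 0.031 over all genes there. Selenop had differences of -0.73 in DC and 0.00 in CC (unadjusted p = 5.09e-05 for the difference, adjusted p = 0.165). Scgn had -0.87 in DC and 0.07 in CC, and Cldn1 -0.95 and -0.02. Btd, which encodes biotinidase and was picked for this contrast after its values were seen, had -0.70 in DC and 0.16 in CC (unadjusted p = 1.8e-05, adjusted p = 0.165). The difference between the conditions had an unadjusted p under 0.05 in 244 of the 272 stable genes, which were chosen on the DC arrays that enter it, and an adjusted p under 0.05 in 0.

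**Figure D5:**
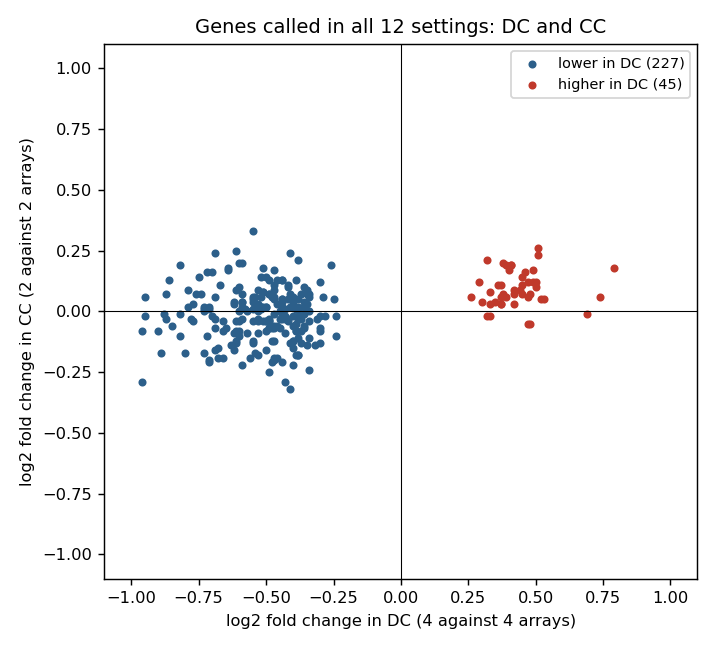
Log2 fold change between arrays labelled Hes3 siRNA and scrambled in CC (y axis, 2 against 2 arrays) against that in DC (x axis, 4 against 4 arrays) for the 272 stable genes, chosen on the DC values; blue points are the 227 decreases and red points the 45 increases. Along the y axis the blue points centre on -0.015 and the red points on 0.082.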

How the data were processed

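Total RNA was labelled for Affymetrix arrays. For each array the deposited table gives a value per probe set, taken as log2 from its range of 3.94 to 14.4; how the authors summarized, corrected or normalized it, and the genome build, are not given in the sources used here. All 12 columns were used. Groups came from the titles. Of 35556 probe sets, 21789 had exactly 1 gene symbol in the platform annotation, 1621 several and 12146 none. Values were quantile-normalized over the 12 arrays and all probe sets. For the 999 genes with several single-gene probe sets, the one with the highest mean was kept.

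A linear model with a mean for each of the 4 groups was fitted to the 12 arrays (lmFit and eBayes of limma 3.58.1, R 4.3.3), which left 8 residual and 7.48 prior degrees of freedom. P-values are two-sided, Benjamini-Hochberg adjusted over 19938 genes, with a threshold of 0.05. Fold changes are given with the model's SE. Precision is limited by how few arrays there are. The fit was tested on simulated data.

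The genes always named were Hes3, Hes1, Ins2, Pdx1 and Mafa. Others were the 15 largest decreases and increases among called genes without overlap of arrays, the 15 largest of each among stable genes, and up to 4 called members of the 6 families with the highest share in each direction. Predicted genes, clones, microRNAs, small nucleolar RNAs and olfactory and vomeronasal receptors were left out of the first sets. Genes outside this rule came from the marker lists or were chosen after their values were seen. Most of the latter are marked so where they are named. Some further family members, such as Fzd7, Sox4, Fgf12 and Col4a1, are not marked. Members, families and lists were chosen with earlier results of these data known. The symbol patterns of the aminoacyl-tRNA synthetases, septins and microRNAs were repaired after family values had been seen. Mature, hairpin and promoter sequences and gene order came from RefSeq (GRCm38.p6 for sequences). Alternatives were other normalizations, filters, fits and sets of arrays. Ins1, Gapdh and Cdkn1a are not reported here.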

Additional observations from a re-analysis of the deposited data

Results flagged for a closer look

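In 10 of 190 groups of 4 arrays tested for the named genes, 1 array stood apart from the other 3 by more than Dixon's 95% critical value for the gap as a share of the group's range. Chance flags about 1 in 20 such groups, which is about this number. Of the 10, scrambled array 1 was the one apart in 6: it was the lowest for Gpr6 (7.83, the other 3 at 7.96 to 7.98), Col2a1 (8.37, others 8.58 to 8.59), Sox13 (8.47, others 8.65 to 8.68) and Krtap17-1 (10.1, others 10.3 to 10.4), and the highest for Pex3 (9.72, others 9.57 to 9.58) and Taf2 (10.5, others 10.2 to 10.3). In each of these 6 genes it lay on the side away from the Hes3-labelled arrays. Scrambled array 4 was the highest for Tns1 (10.2, others 10.0 to 10.1), scrambled array 2 the highest for Rflna (9.22, others 9.06 to 9.08), and scrambled array 3 the lowest for Pcdhb20 (8.43, others 8.61 to 8.62), each toward the Hes3-labelled arrays. Hes3-labelled array 1 was the highest for Wnt10a (8.94, others 8.53 to 8.57).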

How the results depend on the processing

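The count of 5735 called genes (3383 higher, 2352 lower) became 9408 (5769 higher, 3639 lower) on the deposited values, 172 (13 higher, 159 lower) with a minimum of 1.5-fold, and 286 (46 higher, 240 lower) without Hes3-labelled arrays 1 and 5. Higher calls numbered 1694 after cyclic loess and 2169 with dim genes left out, and lower calls 5022 after median centring. Leaving out single DC arrays gave 2640 (without scrambled array 1) to 7577 (without Hes3-labelled array 7) called genes, 1301 to 4928 higher and 1339 to 2649 lower. The DC groups share only the replicate numbers 1 and 2, and same-numbered arrays deviated in opposite senses (correlations -0.318 and -0.217), so the numbers were not taken as pairs; with the replicate number as a block, 958 genes were called, 400 higher and 558 lower. The difference between DC and CC kept 0 calls except without CC scrambled array 2 (950); with only the 8 DC arrays it has no value. Of the 90 called named genes, 0 changed sign in any setting; 55 lost the call without arrays 1 and 5, 33 with the block, 62 with the 1.5-fold minimum, 13 without at least 1 single array, 2 after cyclic loess and 1 each on the deposited values, after centring and with array weights. Among the 5 uncalled ones, Hes3 turned to -0.02 after cyclic loess. Ins2 turned to -0.05 on the deposited values, -0.12 after centring, -7.8e-05 with array weights and -0.0031 without arrays 1 and 5, and Pdx1 to 0.01 without them. Mafa turned to 0.00074 after cyclic loess, to 0.18 with the block, and ranged from -0.06 to 0.03 without single arrays. Family counts stayed within 1.5 times in 56 of 78 cases. Where a value moved, the cause was not tested, except that the fits with fewer arrays have less information.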
